A study of Mus musculus with 12 samples.

Results

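Needling at GV16, the site the study used as the control for its acupoint of interest, was compared with no needling in the retina of immunized mice. The 6 libraries labelled GV16 (3) or MOG (3) were taken from the 12 libraries of the series, and the comparison was made over all 18299 genes that passed the expression filter, of 34538 genes with a count in any library. MOG mice were 13-week-old wild type C57BL/6 females immunized with MOG35-55 peptide, a fragment of myelin oligodendrocyte glycoprotein, in complete Freund's adjuvant with pertussis toxin, which induces experimental autoimmune encephalomyelitis with optic neuritis. GV16 mice and GB20 mice had the same immunization, age, sex and genotype and were needled repeatedly at the respective site in the weeks before the retina was taken. SHAM mice were sham controls of the same strain, age, sex and genotype, and what they were given in place of the peptide is not described further in the sources used here.

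Needled mice were anesthetized with xylazine and ketamine before each session. Whether MOG mice without needling were anesthetized on the same days is not stated, so that needling and anesthesia cannot be told apart in this comparison. Groups held 2 or 3 mice in each of 3 repeats of the experiment, and RNA is described as taken from each group, so that a library may pool mice. The p-values measure the spread between libraries, which may in part be technical. The design has no group needled without immunization.

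The retina contains rods, cones, bipolar, horizontal, amacrine and ganglion cells, and Müller glia that span its thickness and control its water, ion and glutamate balance. In optic neuritis the axons of the ganglion cells are damaged, and Müller glia and astrocytes become reactive, with more intermediate filament, cytokine receptor and growth factor mRNA. Retinal cells also hold a circadian clock, in which CLOCK and BMAL1 bind E-boxes in the promoters of their own repressors, the Period and Cryptochrome genes, and they carry the glucocorticoid receptor, which binds response elements near its target genes when hormone is present.

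Few genes passed the test between the groups. The total count per library was 15860278 to 16198995 in GV16 and 16122738 to 18067710 in MOG, and the levels below are given as CPM, the count of a gene scaled to the size of its library with TMM factors. A gene was a DEG when padj, the Benjamini-Hochberg adjusted p of edgeR's quasi-likelihood test over the 18299 genes, was under 0.05. GV16 vs. MOG gave 30 DEGs, or 0.164% of the genes tested, of which 12 were higher in GV16 (0.0656%) and 18 were lower (0.0984%). Without adjustment, 419 genes (2.29%) were higher and 550 (3.01%) lower at a p under 0.05. These shares stand beside the counts of every gene list below. In all 30 DEGs the 3 GV16 libraries lay apart from the 3 MOG libraries, as they did in 12.6% of all genes tested. The genes named below are the DEGs and, as examples of the gene lists, genes among the 3 most abundant members of each, and any other gene was chosen after its values were seen. The median log2 fold change over all genes was 0.0024 and the middle 50% lay between -0.095 and 0.085.

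**Figure D1:**
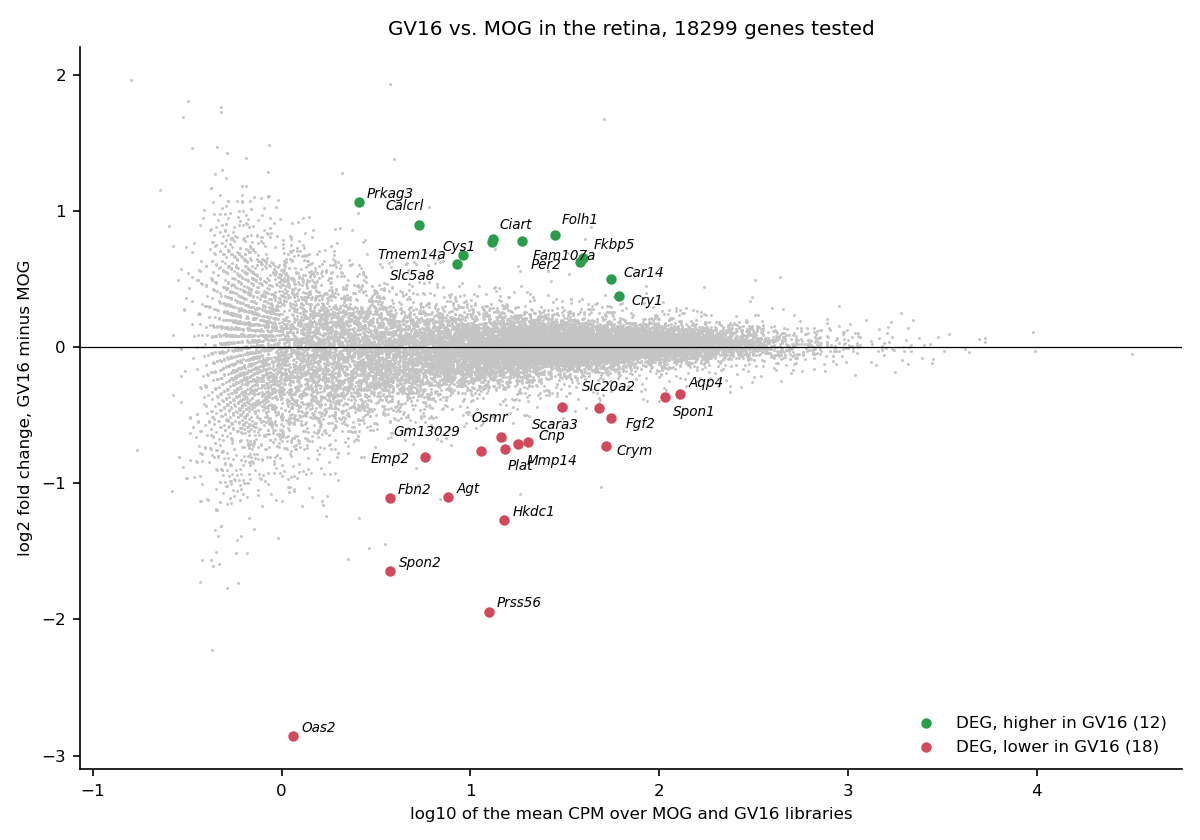
Each point is 1 of the 18299 genes tested, with the log10 of its mean CPM over the 6 MOG and GV16 libraries on the horizontal axis and the log2 fold change, GV16 minus MOG, on the vertical axis. The 12 green points are DEGs higher in GV16, up to 1.07 in Prkag3, and the 18 red points are DEGs lower in GV16, down to -2.86 in Oas2.

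The absolute log2 fold change of the DEGs ranged from 0.34 to 2.86 with a median of 0.74, and 7 of the 30 changed by less than 1.5-fold. The 95% interval lay within 1.5-fold in either direction for 12474 genes (68.2%), with a median SE of 0.12 over all genes. A fitted change over 1.5-fold was found in 773 genes, of which 23 were DEGs. Reads of a retina cannot tell fewer cells of a type from less RNA per cell, which applies to every difference below.

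Which DEGs were called depended on single libraries. When each of the 12 libraries was left out in turn, the direction held in all 30 DEGs, and 6 were DEGs in every such fit (Prss56, Hkdc1, Crym, Cnp, Agt and Spon2). Another 12 kept the call in 8 to 11 of the 12 fits, and the libraries that ended those calls are named with each gene. The remaining 12 (Gm13029, Cry1, Fam107a, Tmem14a, Scara3, Spon1, Aqp4, Osmr, Fbn2, Prkag3, Slc5a8 and Emp2) had a padj between 0.0347 and 0.0499 and kept the call in 1 to 5 fits, and the range of the log2 fold change over the 12 fits is given with each. All 12 of these were lost without MOG replicate 2, MOG replicate 3, GV16 replicate 1 or GV16 replicate 2, 11 without MOG replicate 1 or SHAM replicate 1, and 10 without GV16 replicate 3 or GB20 replicate 2. GB20 replicate 3 ended 9 of them, GB20 replicate 1 ended 8, SHAM replicate 3 ended 2 and SHAM replicate 2 ended 1.

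**Figure D2:**
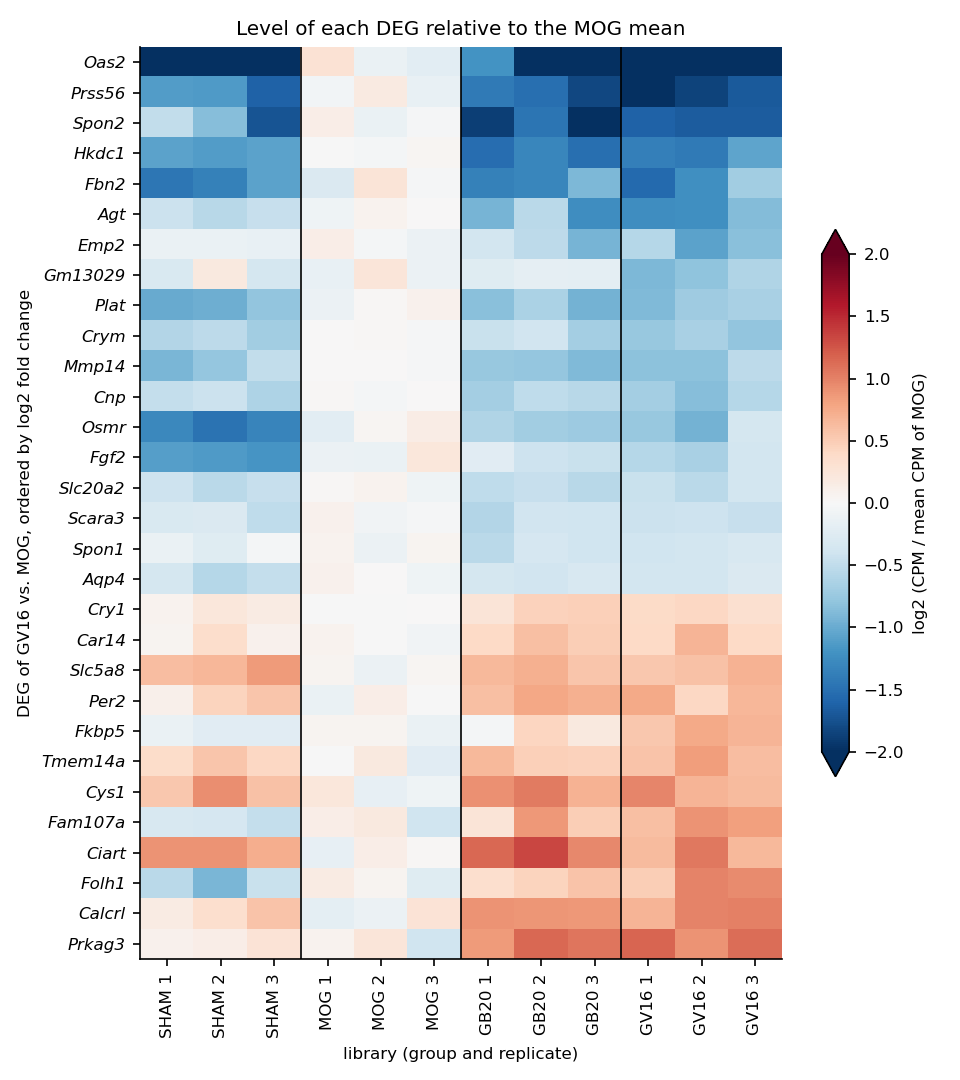
Rows are the 30 DEGs of GV16 vs. MOG ordered by log2 fold change and columns are the 12 libraries by group and replicate. Color gives the log2 ratio of a library's CPM to the mean CPM of the 3 MOG libraries, with values past 2 in either direction drawn in the end color, and the GV16 columns are blue throughout for the 18 lower DEGs and red throughout for the 12 higher DEGs.

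A group of 3 repressors of the circadian clock rose in GV16. Of 24 clock genes tested, 3 were DEGs, all higher (Ciart, Per2 and Cry1), beside 0.0656% of all genes. At an unadjusted p under 0.05, 7 were higher and 3 lower, and the median of the list was 0.07. Ciart (mm10 chr3:95878503-95882251, minus strand), a repressor that binds the CLOCK-BMAL1 complex, was at 8.62, 10.5 and 9.73 CPM in MOG and at 15, 19.9 and 15.1 CPM in GV16. It rose 1.73-fold, a log2 fold change of 0.79 (SE 0.13, padj = 0.00731). The lowest GV16 library lay above the highest MOG library, and the SHAM libraries (17.9, 18 and 15.9 CPM) lay within the GV16 range. It was not a DEG once MOG replicate 1 (log2 fold change 0.72), MOG replicate 3 (0.80) or GV16 replicate 2 (0.65) was left out.

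Per2 (chr1:91415982-91459324, minus strand), a Period repressor of the clock, was at 27.4, 33.2 and 30.0 CPM in MOG and 51.2, 40.1 and 47.7 CPM in GV16. Its log2 fold change was 0.62 (SE 0.11, padj = 0.017). GV16 replicate 2 was the lowest of its group and still above all MOG libraries, and SHAM (32.5, 40.9 and 44.6 CPM) overlapped both groups. The call ended with MOG replicate 1 (0.55), MOG replicate 3 (0.61), GV16 replicate 1 (0.54) or GV16 replicate 3 (0.60) left out. Cry1 (chr10:85131700-85185064, minus strand), the Cryptochrome that partners Per2, was at 53.4, 53.2 and 53.6 CPM in MOG and 69.8, 71.2 and 66.6 CPM in GV16. Its log2 fold change of 0.37 (SE 0.074, padj = 0.0379) was among the smallest of the DEGs, with little spread in either group and a range of 0.35 to 0.40 over the fits with a library left out.

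The other clock genes did not pass the test. The proline- and acid-rich bZIP factor Tef was at 293, 303 and 290.4 CPM in MOG and 358, 355 and 332 CPM in GV16, with a log2 fold change of 0.24 (SE 0.065, padj = 0.309). The other members had log2 fold changes of 0.24 for Per1 (padj = 0.907), -0.25 for Nr1d1 (padj = 0.566), 0.08 for Per3, 0.09 for Cry2, 0.07 for Dbp and -0.03 for Arntl, which encodes BMAL1. Values of the other clock genes thus lay on both sides of 0. The time of day at which each mouse was taken is not given in the sources used here, and its part in these values was not tested.

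Promoter sequences of 2 of the clock DEGs are shown because they hold the E-box that CLOCK and BMAL1 bind. Per2, the other clock DEG, was not among the genes in which the search found this motif. The search covered the 250 bases before each start in RefSeq (GRCm38.p6), and the part printed ends where the first annotated exon of the gene begins. The E-box CACGTG is in capitals, and each sequence is written 5′ to 3′ on the gene's strand, which is the minus strand for both. The stretch of Ciart is chr3:95882252-95882478 and that of Cry1 is chr10:85185065-85185304.
Ciart: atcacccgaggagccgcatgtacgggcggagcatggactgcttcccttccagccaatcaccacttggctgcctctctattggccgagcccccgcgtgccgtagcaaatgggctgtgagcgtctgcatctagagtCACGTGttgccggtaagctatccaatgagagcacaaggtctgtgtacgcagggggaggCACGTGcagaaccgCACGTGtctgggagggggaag
Cry1: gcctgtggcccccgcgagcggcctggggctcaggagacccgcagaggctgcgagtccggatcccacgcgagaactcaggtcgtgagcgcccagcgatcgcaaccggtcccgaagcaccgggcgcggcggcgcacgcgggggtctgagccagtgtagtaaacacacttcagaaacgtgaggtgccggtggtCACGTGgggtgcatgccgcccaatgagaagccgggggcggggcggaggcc
The 3 E-boxes of Ciart begin 116, 58 and 44 bases before the start, and the 1 E-box of Cry1 begins 60 bases before it. Of the 30 DEGs, 20 had an entry in the RefSeq table, and 3 of these (Ciart, Cry1 and Fkbp5) held the motif, beside 6.02% of all 32851 windows. A gene was counted if any of its windows held the motif, while the share is per window, so these are unlike units, here and for the elements below. The motif reads the same on both strands. A match describes these letters only.

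**Figure D3:**
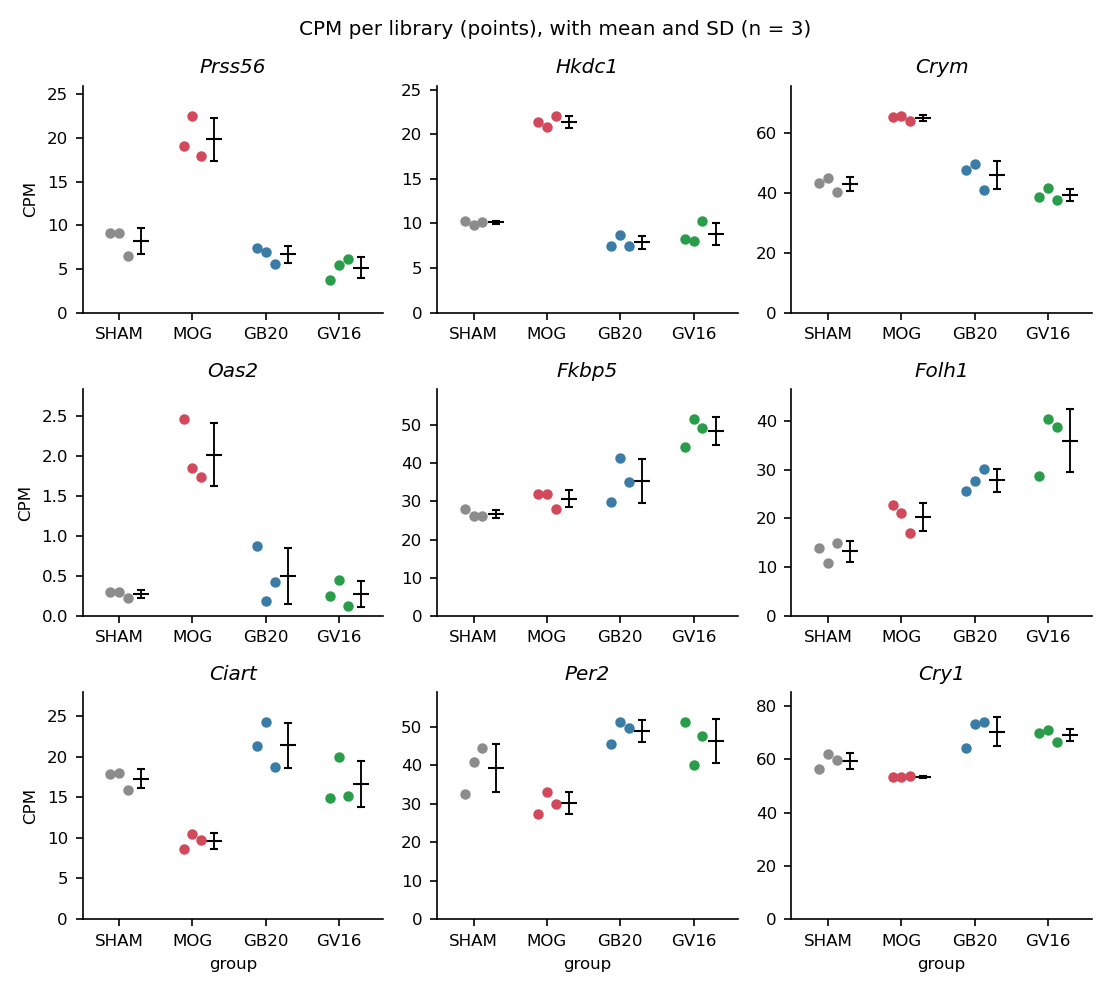
CPM of 9 DEGs (vertical axes, starting at 0) in each of the 3 libraries of SHAM, MOG, GB20 and GV16 (points), with the group mean and SD (n = 3) as a bar to the right of the points. In Prss56, Hkdc1, Crym and Oas2 the MOG points lie above all others, and in Ciart, Per2 and Cry1 they lie below the points of both needled groups, while in Fkbp5 the 3 GV16 points lie above those of every other group.

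Among genes that respond to glucocorticoids, Fkbp5 and Fam107a rose in GV16. They were the 2 DEGs of 26 tested, beside 0.0656% of all genes higher. At an unadjusted p under 0.05, 7 were higher and 1 lower, beside 2.29% and 3.01% of all genes, with a list median of 0.13. Fkbp5 (chr17:28399094-28517527, minus strand), a co-chaperone that lowers the hormone affinity of the glucocorticoid receptor and is induced by it, was at 32, 32 and 28 CPM in MOG and 44.3, 51.6 and 49.1 CPM in GV16. It rose 1.58-fold, a log2 fold change of 0.66 (SE 0.10, padj = 0.00395). All GV16 libraries lay above those of the other groups, with 28, 26.1 and 26.1 CPM in SHAM and 29.9, 41.4 and 35 CPM in GB20. Leaving out MOG replicate 3 (0.59) ended the call.

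Fam107a (chr14:8296274-8318023, minus strand), an actin-binding protein induced by stress and glucocorticoids, was at 15.2, 15.7 and 10.5 CPM in MOG and 20.9, 25.7 and 24.3 CPM in GV16. The log2 fold change was 0.78 (SE 0.15, padj = 0.0415). MOG replicate 3 was the lowest of its group and close to the SHAM libraries (11.1, 10.9 and 9.88 CPM), and without it the log2 fold change was 0.61, the lowest of a range of 0.61 to 0.88. The other members did not pass the test. Zbtb16, a hormone-induced transcription factor, was at 4.42, 2.83 and 4.56 CPM in MOG and 8.82, 8.1 and 7.31 CPM in GV16 (log2 fold change 1.03, padj = 0.187). Tsc22d3, which encodes the glucocorticoid-induced leucine zipper, had a log2 fold change of 0.29 (padj = 0.379) and the metallothionein Mt1 one of 0.38 (padj = 0.83). Of the 26 tested, 18 had values above 0 and 8 below. Sorl1, the 1 member lower at an unadjusted p under 0.05, was at -0.40 (padj = 0.287), and Cebpd was at -0.56 (padj = 0.957). The members with the highest CPM included the kinase Sgk1, a common target of the receptor, at 0.00 (95% interval -0.16 to 0.16) and Klf9 at -0.02 (-0.18 to 0.13). The receptor itself, Nr3c1, was at 0.08 (-0.09 to 0.24). The most abundant member, the glutamine synthetase gene Glul, was at 0.25 (95% interval 0.09 to 0.41, padj = 0.472). The summed CPM of the 27 listed genes was 3078 to 3364 in MOG and 3527 to 3637 in GV16, which do not overlap. This sum is weighted toward abundant members such as Glul, which was not a DEG, and no sum without Glul was made. Summed ranges were also apart for other lists, such as the clock genes (2871 to 2944 in MOG and 2974 to 3092 in GV16). Those of cholesterol synthesis and uptake (1691 to 1762 in MOG and 1568 to 1656 in GV16) were apart as well, so nothing is read from the separation. The list median was 0.06 without GV16 replicate 2 and 0.08 with a mean count of at least 100.

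Folh1 (chr7:86718977-86775943, minus strand), the membrane peptidase that splits the neuropeptide N-acetylaspartylglutamate (NAAG) into N-acetylaspartate and glutamate, rose 1.77-fold. It was at 22.7, 21 and 17.1 CPM in MOG and 28.6, 40.4 and 38.8 CPM in GV16, a log2 fold change of 0.83 (SE 0.14, padj = 0.0104). SHAM libraries were lower still (14, 10.8 and 14.9 CPM), and GV16 lay farther from SHAM than MOG did. Folh1 was not a DEG once MOG replicate 2 (0.85), MOG replicate 3 (0.71), GV16 replicate 2 (0.73) or GV16 replicate 3 (0.77) was left out. It was also not a DEG in edgeR after removal of a trend with gene length (0.82, padj = 0.0519), or with a replicate block as well (0.81, padj = 0.127). Folh1 was the 1 DEG among 9 genes tested for NAAG metabolism, whose median was -0.19 and turned to 0.06 with a mean count of at least 100. The synthetases Rimklb and Rimkla had values of -0.19 and 0.06, the N-acetylaspartate synthase Nat8l 0.12, the related peptidase Naalad2 -0.22 and the NAAG receptor Grm3 -0.40, none past the test.

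The glucocorticoid response element is a pair of inverted half-sites, written here as GNACANNNTGTNC, and the 2 promoter windows below are shown because they hold it. They are cut in the same way, with the element in capitals, and both genes are on the minus strand. The stretch of Folh1 is chr7:86775944-86776114, and that of Fam107a, for 1 of its 3 listed starts, is chr14:8309796-8310029.
Folh1: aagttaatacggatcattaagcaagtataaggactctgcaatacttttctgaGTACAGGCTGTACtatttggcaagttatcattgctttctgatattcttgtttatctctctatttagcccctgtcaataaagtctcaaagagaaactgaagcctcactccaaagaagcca
Fam107a: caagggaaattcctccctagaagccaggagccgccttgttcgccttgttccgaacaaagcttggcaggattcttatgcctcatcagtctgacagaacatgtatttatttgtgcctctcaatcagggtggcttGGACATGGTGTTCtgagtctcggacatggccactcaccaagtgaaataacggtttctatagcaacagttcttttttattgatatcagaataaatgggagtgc
The element begins 198 bases before the start of Folh1 and 118 bases before that start of Fam107a. Of the other windows of Fam107a 1 overlaps the one shown and 1 lacks the element. Car14, also a DEG, held it 225 bases before its start. Searched on both strands, 3 of the 20 DEGs with an entry held the element in any of their windows, beside 0.387% of all 32851 windows taken singly. Fkbp5 held none in this window, which says nothing of elements elsewhere in the gene. The STAT element TTCNNNGAA was in 2 of the 20 DEGs (Agt and Prss56), beside 7.02% of all windows.

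A group of 3 extracellular proteases fell in GV16. Of 22 genes tested for extracellular proteases and their inhibitors, these were the DEGs (Prss56, Plat and Mmp14), beside 0.0984% of all genes. At an unadjusted p under 0.05, 5 were lower and 0 higher, and the list median was -0.07 (-0.16 without GV16 replicate 1). Prss56 (chr1:87183313-87188405, plus strand), a secreted serine protease whose loss alters eye size, was at 19, 22.6 and 17.9 CPM in MOG and 3.79, 5.46 and 6.19 CPM in GV16. It was 74% lower, a log2 fold change of -1.94 (SE 0.17, padj = 1.52e-06). This was the smallest padj of the comparison, and every GV16 library lay below every SHAM library (9.14, 9.06 and 6.49 CPM). Plat (chr8:22757727-22782844, plus strand), the tissue plasminogen activator, fell from 17.7, 19.5 and 20.4 CPM to 10.4, 11.7 and 12.2 CPM, a log2 fold change of -0.75 (SE 0.12, padj = 0.00434). The call ended with GV16 replicate 1 (-0.68) left out. Mmp14 (chr14:54431612-54445364, plus strand), a membrane-type metalloproteinase that activates Mmp2, fell from 22.4, 22.4 and 21.9 CPM to 12.6, 12.5 and 15.5 CPM, a log2 fold change of -0.71 (SE 0.12, padj = 0.0059). The MOG libraries of Mmp14 nearly coincided, GV16 replicate 3 was the nearest to them, and it was not a DEG once GV16 replicate 1 (-0.66) or GV16 replicate 2 (-0.66) was left out. Mmp2 had a value of 0.06 (95% interval -0.18 to 0.29), and the inhibitors Timp1 and Timp2 had values of -0.67 and -0.13, none past the test.

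Matrix genes gave 3 DEGs among 26 tested, all lower (Spon2, Fbn2 and Spon1), beside 0.0984% of all genes. At an unadjusted p under 0.05, 7 were lower and 1 higher, beside 3.01% and 2.29% of all genes, with a list median of -0.08. Spon2 (chr5:33198184-33218455, minus strand), the secreted matrix protein mindin, was at 6.27, 5.22 and 5.64 CPM in MOG and 1.86, 1.8 and 1.8 CPM in GV16, a log2 fold change of -1.65 (SE 0.26, padj = 0.00434). The 3 GV16 libraries of Spon2 were nearly equal, and SHAM (4.06, 3.18 and 1.72 CPM) spread from the GV16 level toward the MOG level. Its relative Spon1 (chr7:113765998-114043370, plus strand), F-spondin, fell from 126, 110.4 and 124 CPM to 91, 92.6 and 96 CPM, a log2 fold change of -0.37 (SE 0.075, padj = 0.0472) that ranged over -0.42 to -0.33 with a library left out. Fbn2, the microfibril protein fibrillin-2, fell from 4.2, 6.08 and 5.04 CPM to 1.74, 2.19 and 3.16 CPM, a log2 fold change of -1.11 (SE 0.23, padj = 0.0472) and a range of -1.38 to -0.93. The basement membrane collagens did not pass the test and lay on both sides of 0. Log2 fold changes were -0.37 (padj = 0.187) for Col4a1, -0.34 (padj = 0.59) for Col4a2, 0.25 for Col4a3 and 0.23 for Col4a4. Of the 26 matrix genes, 7 had values above 0 and 19 below. Vcan, the 1 gene higher at an unadjusted p under 0.05, was at 0.68 (padj = 0.853). Agrn, an abundant heparan sulfate proteoglycan, was at -0.09 and Sparc at -0.24.

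Fgf2 and Osmr, genes of reactive gliosis, fell in GV16. Of 25 such genes tested, these were the 2 DEGs, beside 0.0984% of all genes lower. Values were below 0 in 22 and above 0 in 3. At an unadjusted p under 0.05, 11 were lower and 0 higher, beside 3.01% and 2.29% of all genes. The list median was -0.47 (-0.26 without GV16 replicate 2) beside 0.0024 for all genes. The list was chosen with earlier results of these data known, and Fgf2 and Osmr were higher in MOG than in SHAM (1.13 and 1.36). Genes high in the MOG libraries tend to fall in any group set against them, so nothing is read from this median. The same applies to the interferon and complement lists below. Fgf2 (chr3:37348346-37410108, plus strand), a growth factor that supports photoreceptors and rises in injured retina, was at 59.9, 59.4 and 76.6 CPM in MOG and 44.1, 41.5 and 50.8 CPM in GV16, a log2 fold change of -0.52 (SE 0.098, padj = 0.0235). MOG replicate 3 was the highest of the 12 libraries, and without it (-0.40), without GV16 replicate 1 (-0.50) or without GV16 replicate 2 (-0.46) the call was lost. SHAM was at 30.5, 29.9 and 28.9 CPM, below every GV16 library. Of its exon bases 9.4% overlap Nudt6 on the other strand, which was at -0.34. Osmr (chr15:6813577-6874969, minus strand), the oncostatin M receptor, fell from 15.3, 18.3 and 19.7 CPM to 10.6, 9.26 and 13.9 CPM, a log2 fold change of -0.66 (SE 0.14, padj = 0.0472) and a range of -0.84 to -0.54. SHAM was at 7.27, 6.41 and 7.1 CPM, again below every GV16 library, so that for both genes GV16 lay between MOG and SHAM.

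Other gliosis genes did not pass the test. Gfap, the intermediate filament of astrocytes and reactive Müller glia, was at 54, 58.3 and 52.4 CPM in MOG and 40.2, 34.8 and 48.7 CPM in GV16, with a log2 fold change of -0.41 (SE 0.17, padj = 0.905). Vim, the intermediate filament that Müller glia carry at all times, was at 0.02 (95% interval -0.14 to 0.17). Of the less abundant members, Cd44 was at -0.57 (padj = 0.138), Edn2 at -0.62, Lif at -0.47, Serpina3n at -0.50 and Stat3 at -0.21. Il6st, the signalling subunit that Osmr pairs with, was at -0.11 (95% interval -0.28 to 0.06). The summed CPM of the 26 listed genes was 826 to 910 in MOG and 678 to 820 in GV16, which do not overlap, as with other lists above. Without Gfap the other 25 were at 771.69 to 858 in MOG and 643 to 771.67 in GV16, ranges that nearly touch. The summed CPM of 7 astrocyte markers was 86.5 to 90.6 in MOG and 67.2 to 81.7 in GV16. Without Gfap, which both lists hold, the other 6 were at 31.5 to 36.7 in MOG and 32.4 to 33.0 in GV16. Of 6 astrocyte markers tested 0 were DEGs in edgeR and limma-voom, 1 was called by DESeq2 on the 6 libraries, and 1 (Gfap) was lower at an unadjusted p under 0.05. The study, which used DESeq2, reported Gfap among the genes lowered by GV16 needling, so whether Gfap is called depends on the method.

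Oas2, the 1 DEG among 31 interferon response genes tested, fell in GV16. Oas2 (chr5:120730333-120749853, minus strand), an enzyme that senses double-stranded RNA, was at 2.46, 1.84 and 1.74 CPM in MOG and 0.248, 0.45 and 0.124 CPM in GV16, a log2 fold change of -2.86 (SE 0.46, padj = 0.0059). This was the largest change among the DEGs and rested on low counts. The MOG libraries held 44, 30 and 29 reads of Oas2 and the GV16 libraries 4, 7 and 2, and leaving out MOG replicate 1 (-2.69), GV16 replicate 1 (-2.80) or GV16 replicate 3 (-2.51) ended the call. SHAM was at 0.303, 0.294 and 0.222 CPM, overlapping GV16. Oas2 included, 27 of the 31 had values below 0, 2 were lower and 0 higher at an unadjusted p under 0.05, and the median was -0.23. Stat2 was at -0.01 and the class I genes H2-D1 and H2-K1 at -0.16 and -0.16, none past the test.

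Of 16 complement genes tested 0 were DEGs in edgeR, DESeq2 or limma-voom, with 2 lower and 0 higher at an unadjusted p under 0.05 and a median of -0.23. C3 was at 2.74, 10.5 and 2.22 CPM in MOG and 2.48, 1.22 and 1.92 CPM in GV16. The high value was that of MOG replicate 2, which was also the highest library for the macrophage gene Lyz2 (1.46, 9.95 and 1.5 CPM in MOG). C4b was at -0.40 (95% interval -0.83 to 0.04). The 18 microglia and macrophage markers together were at 94.0 to 99.6 CPM in MOG and 85.5 to 102 CPM in GV16, overlapping, with 0 DEGs by the same tools and 1 higher and 0 lower at an unadjusted p under 0.05.

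Müller glia genes changed in both directions. Of 16 tested, 1 DEG was higher (Car14) and 1 lower (Aqp4), 3 were higher and 4 lower at an unadjusted p under 0.05, and the median was -0.01. Car14 (chr3:95897768-95904691, minus strand), a membrane carbonic anhydrase that buffers the extracellular space, rose from 48.4, 45.5 and 43.8 CPM to 60.7, 73.6 and 60.4 CPM, a log2 fold change of 0.50 (SE 0.092, padj = 0.0202). Of its exon bases 17.5% overlap Aph1a on the other strand, whose own log2 fold change was 0.03. Leaving out MOG replicate 1 (0.54), MOG replicate 2 (0.49), MOG replicate 3 (0.46) or GV16 replicate 2 (0.40) ended the call. Aqp4, the main water channel of Müller glia, fell from 153, 145 and 136 CPM to 112, 112 and 118 CPM, a log2 fold change of -0.34 (SE 0.071, padj = 0.0472), the smallest among the DEGs, with a range of -0.39 to -0.30. Per length it remained an abundant transcript, at a mean FPKM of 28.2 in MOG and 22.3 in GV16. The glutamine synthetase Glul, which recycles transmitter glutamate, was at 0.25 (padj = 0.472), Apoe at 0.02 (95% interval -0.15 to 0.19) and Dkk3 at -0.12 (-0.26 to 0.02). The summed CPM of the 16 markers was 4732 to 5291 in MOG and 5057 to 5296 in GV16, which overlap.

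**Figure D4:**
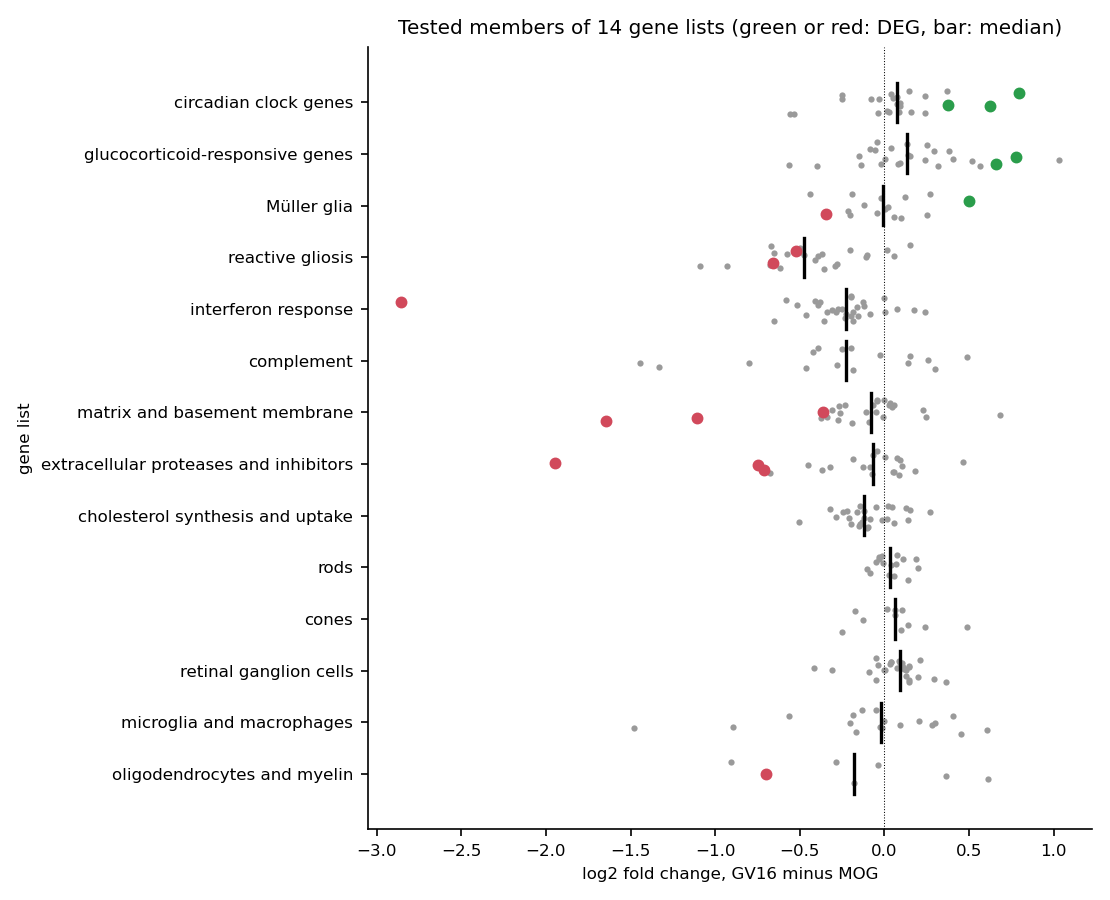
Log2 fold change, GV16 minus MOG, of every tested member of 14 gene lists (points, spread vertically within a list), with the list median as a bar, DEGs higher in GV16 in green and DEGs lower in red. The bar of reactive gliosis lies at -0.47, those of interferon response and complement at -0.23, and those of rods, cones and retinal ganglion cells between 0.03 and 0.09.

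Hkdc1, Crym and Agt, which act in glucose metabolism and hormone handling, fell in GV16 and were called in every fit with a library left out. Hkdc1 (chr10:62383137-62422491, minus strand), a hexokinase family member, was at 21.4, 20.8 and 22.1 CPM in MOG and 8.26, 8.04 and 10.3 CPM in GV16. It was 58.6% lower, a log2 fold change of -1.27 (SE 0.12, padj = 1.87e-06). The MOG libraries stood well above the SHAM libraries (10.2, 9.88 and 10.2 CPM), and 2 of the 3 GV16 libraries lay below SHAM. Of 24 genes for glycolysis and hexokinases Hkdc1 was the 1 DEG, and the list median was -0.06. The other hexokinases were at 0.05 for Hk1 (95% interval -0.10 to 0.20) and -0.09 for Hk2 (-0.34 to 0.16).

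Crym (chr7:120186380-120202111, minus strand), mu-crystallin, which binds thyroid hormone in the cytosol, was at 65.4, 65.8 and 64 CPM in MOG and 38.6, 41.5 and 37.7 CPM in GV16. The log2 fold change was -0.73 (SE 0.081, padj = 4.03e-05). All GV16 libraries lay below all MOG libraries, and SHAM (43.4, 45.1 and 40.3 CPM) overlapped GV16. Crym was the 1 DEG among 13 genes tested for thyroid hormone handling (median -0.02). The receptors Thra and Thrb were at 0.06 (95% interval -0.10 to 0.22) and -0.08 (-0.24 to 0.07), and the hormone-responsive corepressor Hr at -0.30 (padj = 0.379).

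Agt (chr8:124556534-124569706, minus strand), angiotensinogen, the precursor of the angiotensin peptides, was at 9.85, 10.9 and 10.5 CPM in MOG and 4.41, 4.44 and 5.7 CPM in GV16, a log2 fold change of -1.10 (SE 0.16, padj = 0.00274). SHAM (7.75, 7.06 and 7.55 CPM) lay between the groups without touching either. Agt was the 1 DEG among 7 genes tested of the renin-angiotensin system, whose median was -0.38. That median rested on few genes and ranged from -0.65 (without GV16 replicate 3) to -0.02 (without MOG replicate 2) with a library left out, with -0.15 without GV16 replicate 1, -0.10 without GV16 replicate 2, and -0.01 with a mean count of at least 100. Ace, the converting enzyme, was at 0.02 (95% interval -0.29 to 0.34) and the renin receptor Atp6ap2 at 0.00 (-0.14 to 0.14).

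Slc20a2 (chr8:22476788-22569612, plus strand), a sodium-phosphate cotransporter, fell from 56, 57.9 and 51.8 CPM to 40.5, 38.2 and 42.9 CPM, a log2 fold change of -0.45 (SE 0.077, padj = 0.0104). SHAM was at 41.6, 38 and 39.9 CPM, near the GV16 range, and it was not a DEG once MOG replicate 1 (-0.44), MOG replicate 2 (-0.41), GV16 replicate 1 (-0.45) or GV16 replicate 2 (-0.40) was left out. Slc5a8 (chr10:88885992-88929515, plus strand), a sodium-coupled transporter of lactate and other monocarboxylates, rose from 7, 6.21 and 6.9 CPM to 9.75, 10.1 and 10.9 CPM, a log2 fold change of 0.61 (SE 0.13, padj = 0.0499) and a range of 0.56 to 0.65. Of 27 genes for cholesterol synthesis and uptake 0 were DEGs in edgeR, DESeq2 or limma-voom on all 12 libraries and 2 were called on the 6 libraries alone, while 8 were lower and 0 higher at an unadjusted p under 0.05, with a median of -0.12.

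Cnp (chr11:100574904-100591729, plus strand), a phosphodiesterase of myelinating oligodendrocytes, was at 25.5, 24.5 and 25.4 CPM in MOG and 15.7, 13.9 and 16.8 CPM in GV16, a log2 fold change of -0.70 (SE 0.10, padj = 0.00218). The lowest MOG library lay well above the highest GV16 library, and SHAM was at 18.1, 18.7 and 16.4 CPM. The mouse retina itself has no myelin. Of the 15 markers of oligodendrocytes and myelin 7 passed the filter, Cnp was the 1 DEG, and the summed CPM of the 15 was 79.4 to 112 in MOG and 67.5 to 77.7 in GV16. Without Cnp the other 14 were at 54.0 to 87.9 in MOG and 50.7 to 62.0 in GV16, which overlap, and 2 of the 15 were at 0 in every GV16 library. At an unadjusted p under 0.05, 1 was higher (Mal, a myelin proteolipid, at 0.61, padj = 0.606) and 1 lower (Cnp), with a median of -0.18. Mbp was at -0.18 (padj = 0.992) and Mog, whose protein holds the immunizing peptide, at 0.336, 0.737 and 0.721 CPM in MOG and 0.373, 0.129 and 0.433 CPM in GV16. Reads of Cnp could also come from Dnajc7 on the other strand, which overlaps 4.2% of its exon bases and was at -0.05.

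Calcrl (chr2:84330626-84425411, minus strand), which with a RAMP subunit forms the receptors for calcitonin gene-related peptide (CGRP) and adrenomedullin, rose from 3.25, 3.44 and 4.5 CPM to 5.96, 7.39 and 7.49 CPM, a log2 fold change of 0.90 (SE 0.17, padj = 0.0235). It was not a DEG once MOG replicate 1 (0.80), MOG replicate 2 (0.85), GV16 replicate 2 (0.85) or GV16 replicate 3 (0.84) was left out. It was the 1 DEG among 8 genes tested for these receptors and ligands, whose median was 0.10. The subunits were at 0.36 for Ramp1, 0.34 for Ramp2 and -0.05 for Ramp3, the ligand genes at -0.42 for Calca, which encodes CGRP, and -0.37 for Adm, none past the test. Calcrl is carried by vessels, and of 16 vessel and pericyte genes tested it was the 1 DEG, while 3 others were lower at an unadjusted p under 0.05. Kdr was at -0.29 (padj = 0.59), Flt1 at 0.05, Pecam1 at -0.48 and Cldn5 at -0.37. The summed CPM of the vessel list was 376 to 401 in MOG and 326 to 388 in GV16, which overlap.

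Cys1, Prkag3 and Tmem14a rose, and Scara3, Gm13029 and Emp2 fell, outside any list. Cys1 (chr12:24665833-24681813, minus strand), the ciliary protein cystin, rose from 11.2, 8.54 and 9.07 CPM to 18.9, 15.4 and 14.9 CPM, a log2 fold change of 0.77 (SE 0.14, padj = 0.0199), and was not a DEG once MOG replicate 2 (0.69), MOG replicate 3 (0.72), GV16 replicate 1 (0.65) or GV16 replicate 2 (0.81) was left out. Prkag3, a gamma subunit of AMP-activated kinase, had the largest rise among the DEGs, from 1.74, 1.97 and 1.26 CPM to 3.73, 3.09 and 3.59 CPM, a log2 fold change of 1.07 (SE 0.22, padj = 0.0472) and a range of 0.90 to 1.20. Tmem14a, a small membrane protein, rose from 7, 8.05 and 6 CPM to 10.4, 12.5 and 10.7 CPM, a log2 fold change of 0.67 (SE 0.14, padj = 0.0466) and a range of 0.57 to 0.78. Of the lower DEGs, the scavenger receptor Scara3 fell from 37.1, 33.2 and 34.5 CPM to 25.8, 26.1 and 25.5 CPM, a log2 fold change of -0.44 (SE 0.089, padj = 0.0472) and a range of -0.47 to -0.39. Gm13029, annotated as an antisense transcript, fell from 12.8, 16.8 and 13.1 CPM to 7.64, 8.16 and 9.35 CPM, a log2 fold change of -0.76 (SE 0.15, padj = 0.0347) and a range of -0.85 to -0.63. It lies within the gene Igsf21 on the other strand and overlaps none of its exons. Emp2, a tetraspan membrane protein, fell from 8, 7.13 and 6.72 CPM to 4.91, 3.47 and 4.09 CPM, a log2 fold change of -0.81 (SE 0.17, padj = 0.0499) and a range of -0.95 to -0.70, and it was outside the rule by which DEGs were to be named.

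The marker lists of neurons and photoreceptors held 0 DEGs. The lists of rods (16 genes tested), cones (11), bipolar cells (14), amacrine cells (16), horizontal cells (7) and retinal ganglion cells (27) each held 0 in edgeR, DESeq2 and limma-voom, with 2, 4, 0, 1, 0 and 1 genes at an unadjusted p under 0.05. Among retinal ganglion cell genes the neurofilament Nefl was at 0.14 (95% interval -0.07 to 0.36), with Thy1 at -0.05 (-0.25 to 0.15) and Sncg at 0.14 (-0.10 to 0.39). Of the 27 ganglion cell genes 20 had values above 0, and their median was 0.09. The cone genes Arr3 and Opn1sw were at 0.49 (padj = 0.921) and -0.17 (padj = 0.852), on opposite sides of 0. Immediate-early genes (17 tested), heat shock chaperones (16), the unfolded protein response (21) and axon growth genes (20) also held 0 DEGs in edgeR, with 1, 2, 2 and 2 genes at an unadjusted p under 0.05 and medians between -0.04 and 0.05. DESeq2 on all 12 libraries called 1 axon growth gene and 0 of the others.

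Of markers from outside the neural retina, those of lens, erythrocytes and T cells were low. Those of pigment epithelium and choroid were near the level of the 7 astrocyte markers (86.5 to 90.6 CPM together in MOG). The 14 markers of pigment epithelium and choroid were at 83.4 to 94.8 CPM together in MOG and 72.3 to 119 CPM in GV16, and the 18 lens markers at 2.77 to 2.91 and 1.30 to 3.47 CPM, with 7 of the 18 at 0 in every MOG library and 6 in every GV16 library. The 9 erythrocyte markers were at 8.95 to 11.4 and 6.87 to 12 CPM, and the 10 T cell markers at 1.17 to 2.34 and 1.35 to 2.79 CPM. Each range of GV16 overlapped that of MOG. Of these lists 12, 4, 3 and 1 genes passed the expression filter, and 0 were DEGs or had an unadjusted p under 0.05 in edgeR. The 16 rod markers, which define retinal tissue, were at 71655 to 79330 CPM in MOG and 73110 to 77720 CPM in GV16. Genes of protein synthesis and respiration held 0 DEGs in edgeR, with medians of 0.14 for 80 cytosolic ribosomal protein genes, 0.08 for 91 nuclear respiratory chain genes and 0.11 for 27 mitochondrially encoded genes. At an unadjusted p under 0.05 these lists had 8, 4 and 4 genes higher and 1, 0 and 0 lower, and DESeq2 on all 12 libraries called 1, 0 and 0. Log2 fold changes also fell slightly with gene length (Spearman correlation -0.115 across 13387 genes of at least 3 CPM, which are not independent replicates).

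Needling at GV16 was then compared directly with needling at GB20, to test for values particular to the control site. It gave 1 DEG, or 0.00546% of the genes tested, and 536 genes at an unadjusted p under 0.05. Gpnmb (chr6:49036546-49070929, plus strand), a transmembrane glycoprotein of melanosomes and of phagocytic macrophages, was at 6.95, 9.13 and 6.75 CPM in GV16 and 3.3, 2.8 and 3.59 CPM in GB20. The log2 fold change, GV16 minus GB20, was 1.23 (SE 0.17, padj = 0.00697). MOG was at 9.23, 12.1 and 11 CPM and SHAM at 3.39, 2.65 and 3.22 CPM, so that the GB20 libraries lay near the SHAM libraries and the GV16 libraries between those and the MOG libraries. Against MOG, Gpnmb did not pass the test in GV16 (log2 fold change -0.50, padj = 0.495). The call ended with GB20 replicate 1 (1.25), GB20 replicate 2 (1.14) or GV16 replicate 2 (1.08) left out. The pigment epithelium and choroid markers were at 83.0 to 122 CPM in GB20 and the microglia and macrophage markers at 79.7 to 107 CPM, both overlapping their GV16 ranges.

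Of the 30 DEGs of GV16 vs. MOG, 0 passed edgeR's test between the needled groups, and for 5 the 95% interval of the difference left out 0. Over all genes tested, 2.93% had an unadjusted p under 0.05 in this comparison, and the 30 were chosen on the same GV16 libraries, so that nothing is read from their share. For 22 of the 30 that interval, of GV16 minus GB20, lay within 1.5-fold in either direction. The share of all genes tested with such an interval was not worked out, so nothing is read from this count. Cry1 differed by -0.03 (-0.18 to 0.12), Car14 by 0.00 (-0.18 to 0.19), Aqp4 by 0.01 (-0.14 to 0.15) and Hkdc1 by 0.17 (-0.09 to 0.43). Of the 5 whose interval left out 0, Fkbp5 (0.45, interval 0.24 to 0.66, padj = 0.659) and Folh1 (0.37, 0.09 to 0.65) had values above 0, and Ciart (-0.36, -0.62 to -0.11), Crym (-0.23, -0.40 to -0.06) and Gm13029 (-0.56, -0.87 to -0.24) had values below 0. For Oas2, with an interval of -2.05 to 0.27, a difference between the sites was not detectable at this depth.

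**Figure D5:**
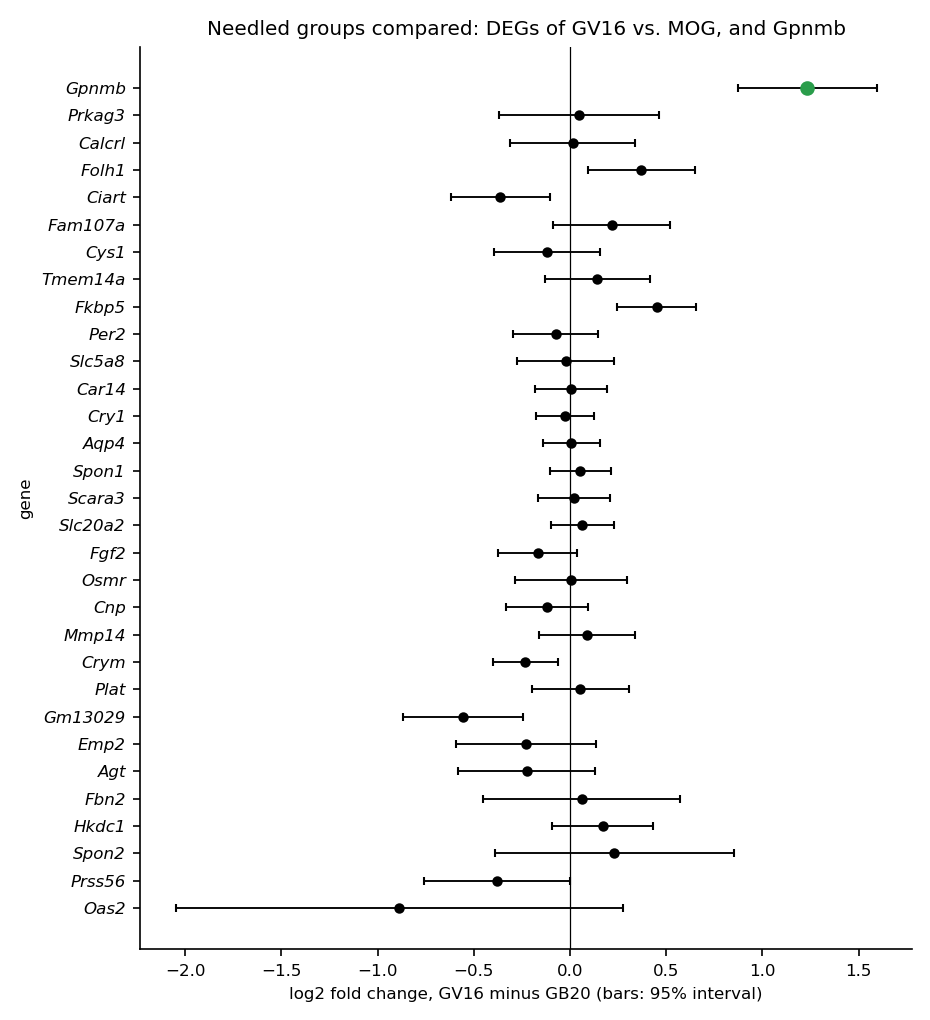
Log2 fold change, GV16 minus GB20, of the 30 DEGs of GV16 vs. MOG (black) and of Gpnmb (green), with 95% intervals as bars. Gpnmb at 1.23 is the 1 DEG, and among the others the bars of Fkbp5 and Folh1 lie above 0 and those of Ciart, Crym and Gm13029 below it.

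The comparisons of GB20 with MOG and of MOG with SHAM share the MOG libraries with GV16 vs. MOG, so their values are given side by side and no agreement is read from them. For Prss56 the log2 fold change was -1.94 (SE 0.17) in GV16 vs. MOG, -1.57 (SE 0.16) in GB20 vs. MOG and 1.27 (SE 0.16) in MOG vs. SHAM. For Hkdc1 the 3 values were -1.27 (SE 0.12), -1.44 (SE 0.12) and 1.08 (SE 0.12), for Ciart 0.79 (SE 0.13), 1.16 (SE 0.13) and -0.85 (SE 0.13), and for Spon2 -1.65 (SE 0.26), -1.88 (SE 0.26) and 0.94 (SE 0.24). Fkbp5 had 0.66 (SE 0.10), 0.21 (SE 0.10) and 0.20 (SE 0.10), and Folh1 had 0.83 (SE 0.14), 0.46 (SE 0.14) and 0.62 (SE 0.15). In Fkbp5 and Folh1 all 3 values were above 0, and in the other 4 genes the value of MOG vs. SHAM had the opposite sign to the values of the needled groups, which the shared MOG libraries alone can give. Some DEGs had small values in MOG vs. SHAM, among them Gm13029 at 0.13 (SE 0.14), Emp2 at 0.14 (SE 0.16), Spon1 at 0.14 (SE 0.075), Car14 at -0.17 (SE 0.093) and Prkag3 at -0.17 (SE 0.24).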

How the data were processed

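Retinal poly(A) RNA of 4 groups (SHAM, MOG, GB20, GV16, with 3 libraries each, grouped by their labels) was sequenced in paired-end mode. Per the labels, the authors aligned reads to mm10 with HISAT2 2.0.5, and their methods name FeatureCounts v1.5.0-p3 for read counts per gene. No source used here gives the strand setting, annotation release or treatment of multi-mapping reads. The deposited raw counts were analysed as they stood, and the FPKM values deposited beside them were used only for levels per length. Of 54532 gene identifiers, 37 were absent from GENCODE vM21, with 0.0115% of counts. Total counts were 15860278 to 19194280 per library.

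Genes were filtered with filterByExpr and scaled by TMM. All 12 libraries were fitted in edgeR 4.0.16 (R 4.3.3) with a mean for each group and robust dispersions (8 residual degrees of freedom), and p-values were adjusted by Benjamini-Hochberg, with DEGs at an adjusted p under 0.05. SE is the absolute log2 fold change over the root of F. The steps were tested on simulated data. Named were the 15 DEGs of smallest p and the 5 of largest change in each direction, DEGs in any of 35 gene lists, the 3 most abundant members of each list, and DEGs of GV16 vs. GB20. Members and lists were chosen with earlier results of these data known. Chosen after their values were seen were Ace, Adm, Aph1a, Arntl, C3, Calca, Cd44, Cebpd, Cldn5, Col4a1, Col4a2, Col4a3, Col4a4, Cry2, Dbp, Dnajc7, Edn2, Emp2, Grm3, Hk1, Hk2, Lif, Lyz2, Mal, Mmp2, Mog, Mt1, Naalad2, Nr1d1, Nr3c1, Nudt6, Pecam1, Per1, Per3, Ramp1, Ramp2, Serpina3n, Sncg, Sorl1, Stat3, Thrb, Timp1, Tsc22d3, Vcan and Zbtb16. Alternatives were RLE and upper-quartile scaling, 2 other filters, DESeq2 1.42.0, edgeR on 6 libraries, limma-voom (limma 3.58.1), a replicate block, a length trend, both together, and each library left out. Some members of the lists are not reported here.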

Additional observations from a re-analysis of the deposited data

Results flagged for a closer look

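Gpnmb was the 1 gene whose level differed between the needled groups by a test of that difference, with a log2 fold change of 1.23 in GV16 minus GB20 (padj = 0.00697, edgeR's quasi-likelihood test, n = 3 libraries per group). All 3 GV16 libraries lay above all 3 GB20 libraries. The call rested on single libraries, since padj was 0.101 without GB20 replicate 1, 0.0891 without GB20 replicate 2 and 0.14 without GV16 replicate 2. It was selected from 18299 genes, and the cause of the difference was not tested.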

How the results depend on the processing

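The 30 DEGs of GV16 vs. MOG kept their direction under every alternative that gave a value. Of these, 5 (Prss56, Hkdc1, Crym, Cnp and Agt) were called in every alternative, with each library left out included. Folh1 was thus not alone in losing its call to another method. Prkag3 and Slc5a8, for example, were not called by edgeR on the 6 libraries (padj = 0.069 and 0.0553) or by limma-voom (padj = 0.071 and 0.08). The number of DEGs was 73 with no filter on low counts, 18 with a mean count of at least 100, 64 with DESeq2 and 47 with edgeR on the 6 libraries alone, and it stayed within 1.5 times of 30 with RLE (30) or upper-quartile scaling (25), DESeq2 (45) or limma-voom (21) on 12 libraries, and a length trend removed (38). With 1 library left out it ranged from 10 (without GV16 replicate 2) to 37 (without SHAM replicate 2). It was 12 without MOG replicate 3 or GV16 replicate 1, 13 without MOG replicate 2, 14 without MOG replicate 1, 18 without GV16 replicate 3 and 19 without SHAM replicate 1, and the share of higher genes among the calls, 40%, ranged from 8.33% (without MOG replicate 3) to 50% (without GV16 replicate 1). List medians moved in 13 cases, and those of medians in the report are given beside them. The median of all genes moved by no more than 0.01 on the log2 scale.

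A replicate block gave 47 DEGs, the 30 among them, and 64 with the length trend removed as well. Deviations of same-numbered MOG and GV16 libraries correlated at 0.34, 0.027 and 0.090 over 11875 genes, and MOG replicate 2 correlated best with GV16 replicate 3 (0.27). The study's methods describe repeats of the experiment, and whether the numbers mark them is not stated, so the numbers were not taken as pairs.

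GV16 vs. GB20 gave 1 DEG, against 8 with no filter, 4 with DESeq2 on 12 libraries, 5 with DESeq2 and 3 with edgeR on the 6 libraries, and 2 with the replicate block and the length trend. With 1 library left out it ranged from 0 to 4 (without SHAM replicate 2). The 0 came without GB20 replicate 1, GB20 replicate 2 or GV16 replicate 2, in edgeR, with 460, 480 and 648 genes at an unadjusted p under 0.05. Why these counts moved was not tested, beyond the smaller number of libraries or genes in some fits. Low counts limit Oas2, Fbn2, Spon2 and Prkag3.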
